A study of Mus musculus with 9 samples.

Results

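Adipocyte and lipogenic genes were followed in the spleen as a set of 33 genes, chosen by symbol because an earlier look at the same arrays had shown that many of them moved together with Fabp4. All 33 were on the array, through 42 of its 39429 non-control probes, and 30 of them were among the 26325 genes tested of 32451 genes or accessions in all. Lep, Acvr1c and Ucp1 stood well above background on 0 to 2 of the 9 arrays and were left untested. Since the values themselves chose the set, its levels, group differences and correlations are given as a description. Counts of members past the threshold of the fit over all genes are given in the same way, support nothing, and no p-value is given for a member.

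Spleen RNA from female balb/c mice had been hybridised to 9 one-colour Agilent arrays 3 for each group. Mice free of Graves' disease (GD) and given a low dietary selenium (Se) supply formed the low Se non-GD group, here non-GD for short. Diseased mice had either the same low supply (low Se GD) or a normal supply (normal Se GD). No group joined a normal supply to the absence of disease. Disease induction and diet composition were not given in the sources used here. Nothing in the labels ties the samples to separate animals, so the spread behind each p-value is that between samples and may be technical.

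Adipocytes store triglyceride in a droplet coated by perilipins and CIDE proteins, take up fatty acids through lipoprotein lipase and bind them with FABP4, and secrete adiponectin, resistin, leptin and the complement factor adipsin. Fatty acids are built from citrate by ATP citrate lyase, acetyl-CoA carboxylase and fatty acid synthase, then elongated, desaturated and esterified to glycerol, steps that most cells carry out at some rate. PPARG and C/EBP alpha are the transcription factors that drive adipocyte differentiation. The spleen is a lymphoid organ bordered by visceral fat and pancreas, and its macrophages also carry several lipid genes, among them Lpl and Pparg.

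The 250 bases upstream of the start of 5 members are shown because these genes moved differently. Adipoq, Cfd and Plin1 were highest in the low Se GD group and ordered the arrays of both low Se groups, but not of normal Se GD, as Fabp4 did (Plin1 in non-GD with no array well above background), Cidec was measured by a pair of probes that gave different sizes, and Elovl6 was lower in that group. The choice was made after their values were seen. The sequences are RefSeq's on GRCm38.p6, read 5′ to 3′ on the gene's strand. Capitals mark matches, on either strand, to the C/EBP half-palindrome motif TTGCNNAA and to the CCAAT box.
Adipoq (chr16:23146286-23146535, plus strand): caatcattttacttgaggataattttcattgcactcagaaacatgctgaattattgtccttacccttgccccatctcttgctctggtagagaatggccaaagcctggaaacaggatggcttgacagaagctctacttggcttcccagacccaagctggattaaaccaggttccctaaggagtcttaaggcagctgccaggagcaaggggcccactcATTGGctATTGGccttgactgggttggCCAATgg
Cfd (chr10:79890603-79890852, plus strand): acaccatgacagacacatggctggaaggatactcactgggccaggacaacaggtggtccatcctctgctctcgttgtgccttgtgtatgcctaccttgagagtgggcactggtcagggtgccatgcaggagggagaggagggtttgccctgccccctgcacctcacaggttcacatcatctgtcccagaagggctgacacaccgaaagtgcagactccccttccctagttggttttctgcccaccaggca
Plin1 (chr7:79732777-79733026, minus strand): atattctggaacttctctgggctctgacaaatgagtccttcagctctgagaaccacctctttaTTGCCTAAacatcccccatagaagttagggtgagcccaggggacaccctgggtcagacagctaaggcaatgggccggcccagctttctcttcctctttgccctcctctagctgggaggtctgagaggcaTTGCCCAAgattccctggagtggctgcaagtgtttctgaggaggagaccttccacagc
Cidec (chr6:113435761-113436010, minus strand): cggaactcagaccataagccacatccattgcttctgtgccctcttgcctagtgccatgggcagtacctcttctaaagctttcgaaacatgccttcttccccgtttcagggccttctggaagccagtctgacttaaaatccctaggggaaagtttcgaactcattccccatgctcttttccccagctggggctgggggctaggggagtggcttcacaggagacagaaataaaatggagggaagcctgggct
Elovl6 (chr3:129532136-129532385, plus strand): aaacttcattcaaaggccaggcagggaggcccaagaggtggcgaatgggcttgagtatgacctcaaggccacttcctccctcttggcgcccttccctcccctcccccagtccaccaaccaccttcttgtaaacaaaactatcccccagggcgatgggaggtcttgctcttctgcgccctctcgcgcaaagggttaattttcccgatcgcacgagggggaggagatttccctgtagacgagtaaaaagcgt
Plin1 held the C/EBP motif at positions -187 and -58 from the start, and Adipoq held CCAAT at -34, -27 and -7. The windows of Cfd, Cidec and Elovl6 shown held neither. Windows were found for 23 of the 33 members, 29 windows in all. TTGCNNAA was in 4 of the 29 (13.8%), those of Cidec, Lep, Plin1 and Pparg, against 9.56% of all 32851 windows of that length. CCAAT was in 8 (27.6%), against 33.8% of all windows. The sterol element TCACNCCAC was in 0 member windows and in 1.05% of all windows. The E-box CACGTG was in those of Lipe and Pcx and in 6.02% of all windows. A match is a description of letters, not a binding site.

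All values by array are log2 processed signals minus the 75th percentile of the array, so that 0 is the level of that percentile and 1 unit is a doubling. A probe's level is not set against another probe's. On 8 arrays 72.6% to 82.6% of non-control spots were well above background, and on normal Se GD replicate 3 this share was 58.4%, so that array leaves the dim members without a measured value most often. On non-GD replicate 3 the value lay between those of the other 2 arrays of its group for 78.3% of 18541 genes well above background on every array, and on low Se GD replicate 2 for 69.0%. Both arrays were in-between in this sense for most of the 21 members well above background on every array, 17 and 19 of them. Values without these 2 arrays are given beside the results they touch. In bulk RNA, fewer cells of a type and less RNA per cell cannot be told apart. The 11 defining spleen cell markers were well above background on all 9 arrays.

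Fabp4, the fatty acid chaperone of fat cells that macrophages and small vessels also make, stood at 1.38, -1.63 and 0.57 on non-GD replicates 1, 2 and 3. The low Se GD arrays gave 5.50, 4.46 and 2.11, those of normal Se GD -1.04, -0.96 and -0.91. All 3 low Se GD arrays lay above the other 6, and within both low Se groups the arrays lay far apart, whereas the normal Se GD arrays lay close together. The mean was 3.91 ± 0.97 (standard error) higher in low Se GD than in non-GD on the log2 scale, and normal Se GD minus low Se GD was -4.99 ± 0.97. Without the in-between arrays the first of these differences was 3.93.

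**Figure D1:**
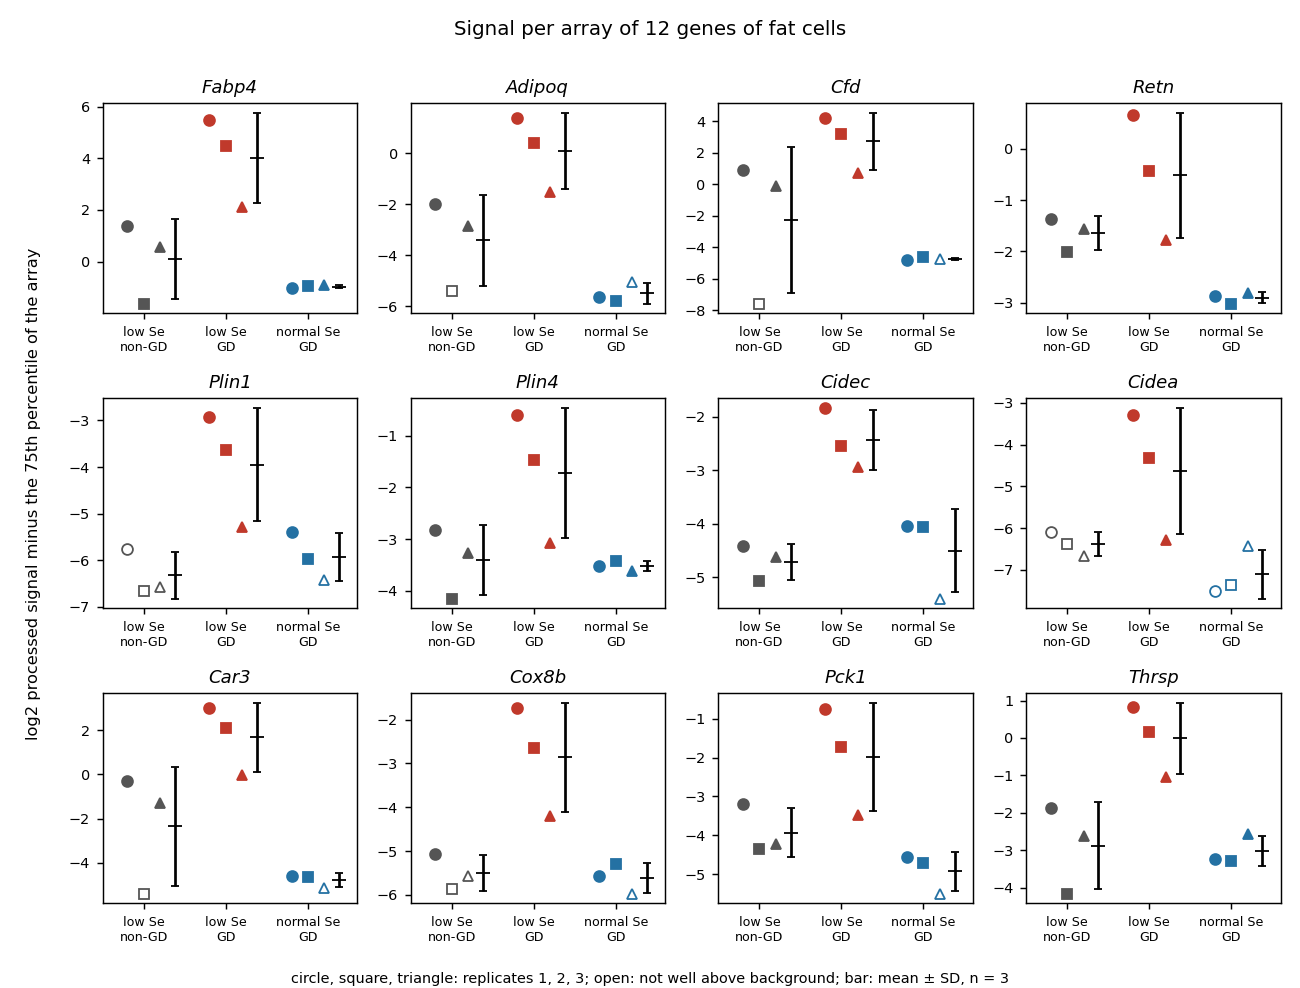
Log2 processed signal minus the 75th percentile of the array (vertical axes, each panel with its own range) for 12 fat cell genes in the 3 groups. Circles, squares and triangles are replicates 1, 2 and 3, open symbols are not well above background, and bars are the mean ± SD of 3 arrays; in every panel low Se GD replicate 1 is the highest point.

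Of the secreted products, Adipoq (adiponectin) was at -1.97, -5.40 and -2.85 in non-GD, at 1.40, 0.43 and -1.52 in low Se GD and at -5.62, -5.81 and -5.04 in normal Se GD. The low Se GD arrays were again above all others, and on non-GD replicate 2 and normal Se GD replicate 3 the probe was not well above background. Its mean in low Se GD was 3.51 ± 0.98 above that of non-GD, and normal Se GD minus low Se GD was -5.59 ± 0.98. Cfd (adipsin) was at 0.91, -7.57 and -0.07 in non-GD, at 4.24, 3.22 and 0.74 in low Se GD and at -4.79, -4.64 and -4.77 in normal Se GD. Its non-GD arrays spanned the range from below the normal Se GD arrays to within the low Se GD arrays, with a value not well above background on replicate 2. The difference of 4.98 ± 2.06 between low Se GD and non-GD therefore came with groups that overlapped, and was 2.32 without non-GD replicate 2, while all normal Se GD arrays lay below low Se GD.

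Retn (resistin, made by fat cells in the mouse) was at -1.37, -2.02 and -1.56 in non-GD, at 0.65, -0.43 and -1.78 in low Se GD and at -2.88, -3.02 and -2.81 in normal Se GD. Low Se GD replicate 3 fell within the non-GD values, and the normal Se GD arrays were the lowest of the 9. The difference was 1.13 ± 0.53 between the low Se groups, and 3.08 by a second, dimmer probe of the gene. Lep (leptin), the hormone by which fat stores signal to the brain, was well above background on 0 arrays, so no level can be given for it.

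Genes of the lipid droplet showed a like order of arrays. Plin1, the perilipin of the fat cell droplet, was at -5.75, -6.65 and -6.57 in non-GD, where no array was well above background, at -2.92, -3.63 and -5.29 in low Se GD and at -5.40, -5.97 and -6.42 in normal Se GD. Low Se GD replicate 3 lay only just above normal Se GD replicate 1. Set against the lowest measurable signal, Plin1 was at least 2.93-fold higher in low Se GD than in non-GD. Plin4, another droplet coat protein, was at -2.82, -4.15 and -3.26, then at -0.61, -1.47 and -3.08, then at -3.51, -3.42 and -3.61 in the same order of groups. Here low Se GD replicate 3 overlapped non-GD, and the difference between the low Se groups was 1.69 ± 0.59.

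Cidec, which fuses droplets in white fat, was at -4.42, -5.08 and -4.63 in non-GD, at -1.84, -2.55 and -2.95 in low Se GD and at -4.05, -4.07 and -5.40 in normal Se GD. The low Se GD arrays did not overlap the others, and the difference from non-GD was 2.26 ± 0.43. A second Cidec probe, well above background on 5 arrays, gave 5.07 for the same difference, and for normal Se GD minus low Se GD the pair of probes gave -2.06 and -8.24. Cidea, the relative known from brown fat, was well above background on the 3 low Se GD arrays alone, at -3.30, -4.33 and -6.28. The lowest of these overlapped the non-GD values of -6.10, -6.38 and -6.67, which were not well above background. Cidea was at least 1.82-fold higher there than in non-GD and at least 2.01-fold higher than in normal Se GD, although with normexp background correction its difference from non-GD was -0.06. Without low Se GD replicate 1 these bounds were 1.14-fold and 1.27-fold.

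Among lipases, Lpl, which frees fatty acids from lipoproteins, was at 1.77, 1.37 and 1.63 in non-GD, at 1.44, 1.51 and 1.60 in low Se GD and at 1.67, 1.64 and 2.02 in normal Se GD. The low Se groups overlapped, and the difference of -0.07 ± 0.15 was smaller than its error and changed sign with the array median as centre, the mean of its probes or its other probe (0.39). Pnpla2, which begins the breakdown of stored triglyceride, was at 1.58, 1.61 and 1.63 in non-GD, at 2.96, 2.62 and 2.16 in low Se GD and at 1.98, 2.10 and 1.76 in normal Se GD. All low Se GD arrays were the highest. Lipe, hormone-sensitive lipase, which takes the next step, went the other way, at -0.45, 1.001 and 0.24 in non-GD against -1.57, -1.38 and -1.98 in low Se GD and -1.24, -1.81 and -3.06 in normal Se GD. Its non-GD arrays were above both diseased groups, which differed from them by -1.91 ± 0.51 (low Se GD) and -2.30 ± 0.51 (normal Se GD).

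Fatty acid synthesis was divided. Thrsp, a lipogenic protein of fat and liver, was at -1.88, -4.16 and -2.62 in non-GD, at 0.83, 0.17 and -1.03 in low Se GD and at -3.23, -3.29 and -2.56 in normal Se GD. Its low Se GD arrays were above all others, with a difference of 2.87 ± 0.65 from non-GD, and of -3.01 ± 0.65 for normal Se GD minus low Se GD. Scd1, which desaturates stearate, was at 1.19, 1.24 and 1.20 in non-GD, at 3.04, 2.41 and 1.54 in low Se GD and at 1.87, 1.90 and 1.98 in normal Se GD. The non-GD arrays were the lowest and lay close together, and low Se GD enclosed normal Se GD. Pcx, pyruvate carboxylase, which feeds citrate export, was at -0.15, -0.83 and -0.51, then at 0.51, 0.33 and 0.20, then at -0.97, -0.88 and -0.84, with low Se GD above both other groups.

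The core enzymes Acly and Acaca differed little by their brightest probes. Acly (ATP citrate lyase) was at 2.598 to 2.89 on all 9 arrays and Acaca, the cytosolic acetyl-CoA carboxylase, at 0.52 to 0.98. Their differences between the low Se groups were 0.14 ± 0.09 and 0.21 ± 0.13, with low Se GD higher and no overlap. Other probes gave 0.41 for Acly, and 0.14 and 0.59 for Acaca by dim probes. With these other probes the sign of the difference between the diseased groups was turned. Fasn (fatty acid synthase) was at -2.74, -3.02 and -2.76 in non-GD, at -1.62, -2.50 and -2.85 in low Se GD and at -2.98, -3.16 and -2.68 in normal Se GD, so that only low Se GD replicates 1 and 2 stood above the rest. Acacb, the mitochondrial carboxylase whose product restrains fatty acid oxidation, was 0.82 ± 0.22 higher in low Se GD than in non-GD, with no overlap.

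Elovl6, which elongates palmitate, was at 0.47, 0.65 and 0.57 in non-GD, at -1.60, -1.42 and -1.42 in low Se GD and at -1.21, -1.30 and 0.88 in normal Se GD. Low Se GD differed from non-GD by -2.05 ± 0.52, with no overlap. Normal Se GD replicate 3 was the highest array of all and far from the other 2 of its group, so the normal Se GD mean rests on 1 array.

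**Figure D2:**
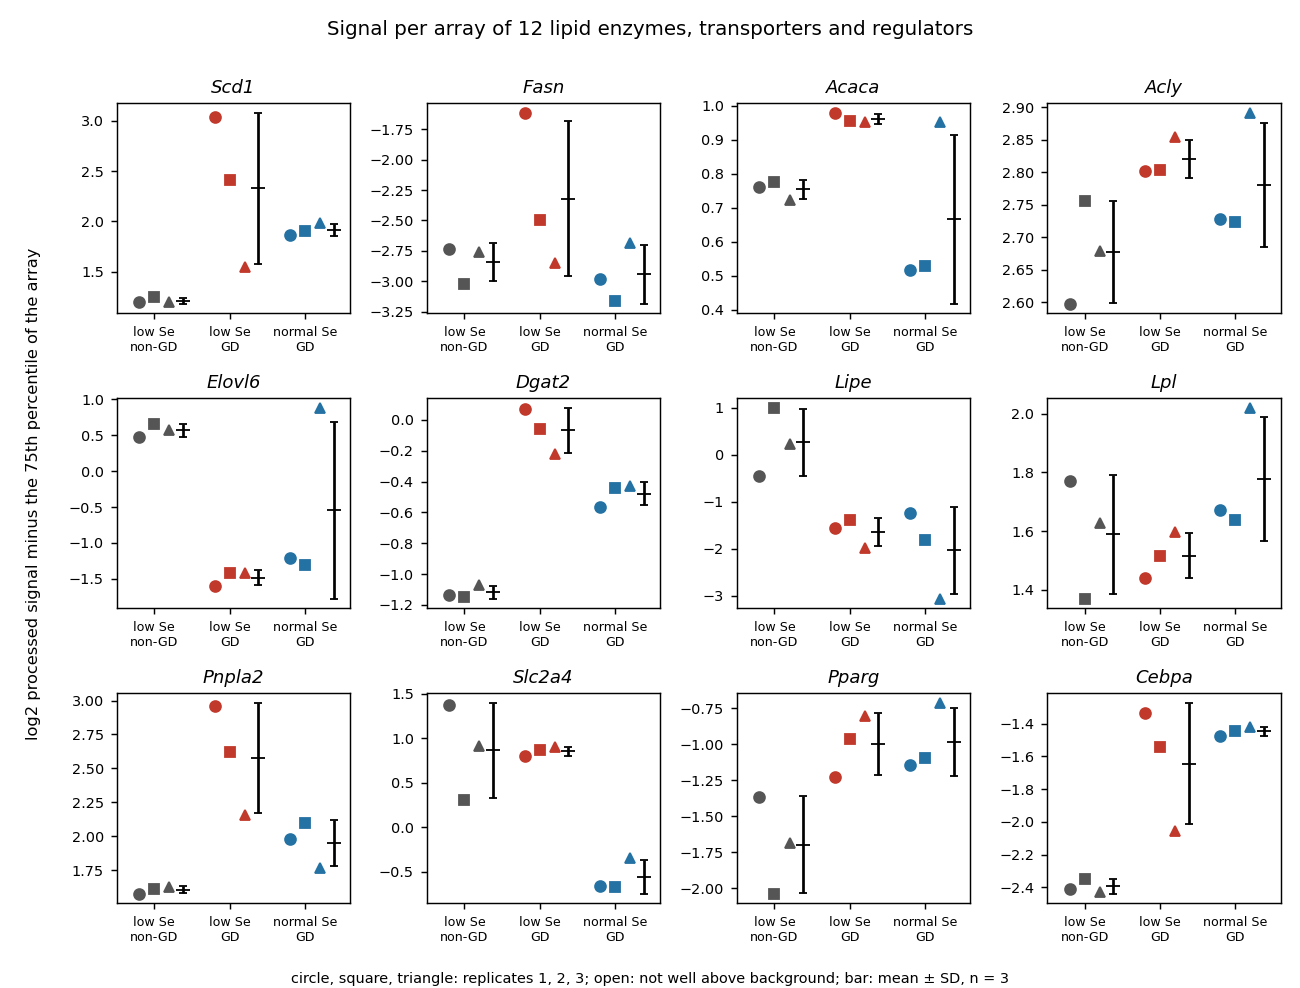
Log2 processed signal minus the 75th percentile of the array (vertical axes, each panel with its own range) for lipid enzyme and regulator genes in the 3 groups. Symbols and bars are as in the plot of fat cell genes (mean ± SD, 3 arrays per group); Lipe and Elovl6 lie lower in low Se GD than in non-GD, and Dgat2 and Pnpla2 lie higher.

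In glyceride synthesis, Dgat2, which adds the last fatty acid to triglyceride, was at -1.13, -1.15 and -1.07 in non-GD, at 0.07, -0.06 and -0.22 in low Se GD and at -0.57, -0.44 and -0.43 in normal Se GD. The 3 groups did not overlap, and low Se GD exceeded non-GD by 1.05 ± 0.10. Dgat1, an unrelated enzyme of the same step, differed by 0.35 ± 0.16, and Agpat2, which makes phosphatidic acid, by 0.24 ± 0.12. Gpd1, which makes glycerol 3-phosphate, was 1.12 ± 0.32 higher in low Se GD than in non-GD, with no overlap. Pck1, which serves glyceroneogenesis in fat, was at -3.20, -4.36 and -4.23, then at -0.75, -1.72 and -3.49, then at -4.56, -4.72 and -5.50. Low Se GD replicate 3 again fell within the non-GD values, and the normal Se GD arrays were the lowest.

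Of the regulators, Pparg was at -1.36, -2.04 and -1.69 in non-GD, at -1.23, -0.96 and -0.80 in low Se GD and at -1.14, -1.09 and -0.71 in normal Se GD. Cebpa was at -2.41, -2.35 and -2.43, then at -1.34, -1.54 and -2.05, then at -1.47, -1.45 and -1.42. For both, the non-GD arrays lay below all 6 diseased arrays, which overlapped each other. Pparg was 0.70 ± 0.21 and 0.71 ± 0.21 higher in low Se GD and normal Se GD than in non-GD, and Cebpa 0.75 ± 0.17 and 0.95 ± 0.17. The receptor genes were dim. Adrb3, the adrenergic receptor that drives lipolysis, was 0.54 ± 0.35 higher in low Se GD than in non-GD by 1 probe, a difference that turned to -0.09 with normexp background correction, and 1.62 higher by another. Acvr1c, an activin receptor of fat cells, was well above background on low Se GD replicates 1 and 2 alone.

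Thermogenic and transport genes did not go together. Ucp1, the uncoupling protein that defines brown fat, was well above background on 0 arrays, while Cox8b, a cytochrome oxidase subunit of brown fat and muscle, was at -5.06, -5.86 and -5.58, then at -1.74, -2.66 and -4.19, then at -5.57, -5.30 and -5.97. Its low Se GD arrays were above all others. Slc2a4, the insulin-responsive glucose transporter, was at 1.37, 0.31 and 0.92 in non-GD, at 0.80, 0.87 and 0.90 in low Se GD and at -0.66, -0.67 and -0.34 in normal Se GD. The low Se groups overlapped, and normal Se GD lay below both, by differences of -1.42 ± 0.25 and -1.41 ± 0.25. Car3, a carbonic anhydrase abundant in fat cells, was at -0.32, -5.40 and -1.30, then at 2.995, 2.08 and -0.04, then at -4.60, -4.63 and -5.16. Its low Se GD arrays were the highest, with the nearest non-GD array only just below. Car3 was not well above background on non-GD replicate 2 and normal Se GD replicate 3.

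Counted over the set, 14 of 30 tested members were higher in low Se GD than in non-GD and 2, Lipe and Elovl6, were lower at an adjusted p under 0.05 in limma's fit over all genes, where 12.8% of all genes tested were called higher and 12.2% lower. Of all calls in that comparison 51.2% were higher, and 40.9% with normexp background correction. These 2 groups did not overlap for 20 members that were higher and 2 that were lower, against 29.5% and 23.4% of all genes. The median difference over all genes, tested or not, was 0.01. Over the 33 members it was 0.91, and 0.94 without the in-between arrays. None of the 16 calls held without both of those arrays (0 of 30 members passed), and with 1 array left out 9 members passed without low Se GD replicate 1, 4 without low Se GD replicate 2, 7 without non-GD replicate 2 and 6 without non-GD replicate 3. On slide 1, the 1 slide that held both groups (3 non-GD arrays and 1 low Se GD array), the median difference over the members was 1.31. That low Se GD array was replicate 1, whose median over the members, -0.61, was the highest of all arrays.

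Between the diseased groups, 3 of 30 tested members, Adipoq, Pcx and Slc2a4, were called lower in normal Se GD, where 0.292% of all genes were called lower and 0.976% higher. These 3 calls were lost without the in-between arrays, and also on leaving out any 1 array other than normal Se GD replicate 3. They were also lost with normexp, quantile scaling, the array median as centre, the authors' table, no filter on dim probes or only the 2 groups compared. With the slide as a fixed block Pcx alone stayed. They held with an intensity trend, the mean of all probes or the slide as a random block. Groups did not overlap for 18 members that were lower and 2 that were higher, against 11.4% and 17.9% of all genes. The median over the 33 members was -0.63, against 0.08 over all genes, and -0.43 within slide 2, which held 2 arrays of each diseased group. In normal Se GD against non-GD, Dgat1, Dgat2, Pparg and Cebpa were called higher and Lipe and Slc2a4 lower, 4 and 2 of 30, where 18.9% and 13.4% of all genes were. Of these 6, Dgat2 and Slc2a4 stayed called without the in-between arrays. These groups shared no slide, and with the slide as a fixed block Cebpa, Dgat1 and Dgat2 stayed called while Slc2a4, Lipe and Pparg did not. The groups did not overlap for 7 members that were higher and 5 that were lower, against 28.0% and 21.1%. The median was -0.09, and 0.72 with the slide as a fixed block, so its sign is not settled. The comparisons share arrays and are not independent of one another.

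**Figure D3:**
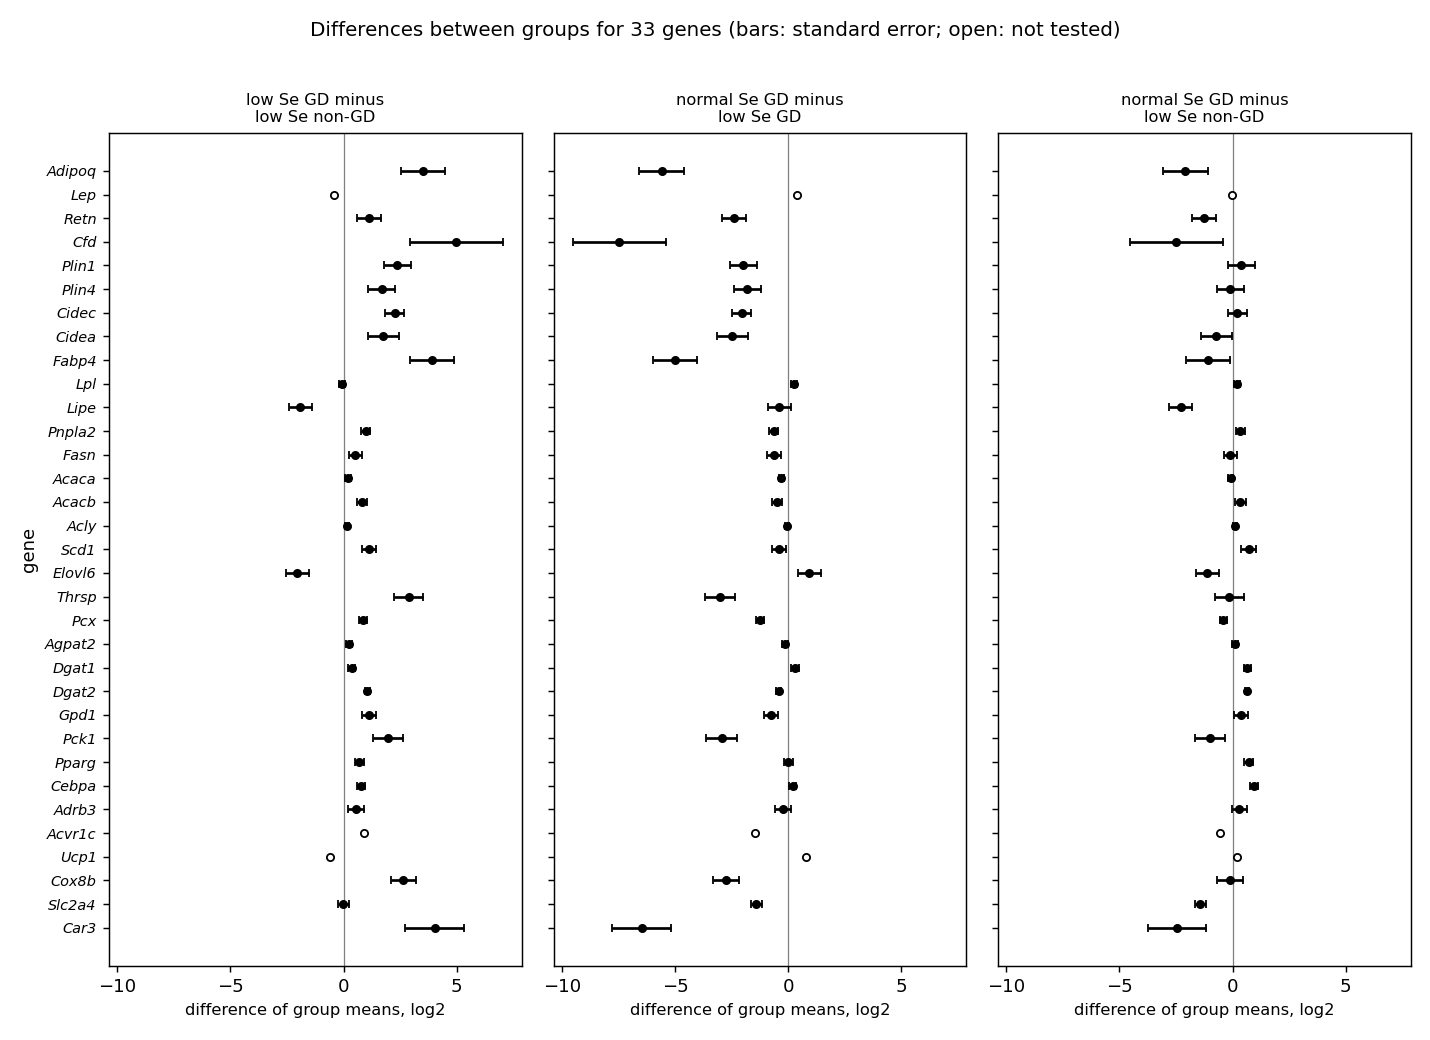
Difference of group means on the log2 scale (horizontal axes) for each of the 33 genes (vertical axis) in the 3 comparisons, with the standard error of the fit as bars and genes not tested as open circles. Most fat cell genes lie to the right in the panel of low Se GD minus non-GD and to the left in that of normal Se GD minus low Se GD, and Lipe and Elovl6 lie to the left in the first.

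To describe how the members moved among samples of 1 group, each gene's group mean was subtracted and the deviations were correlated with those of Fabp4 over the 9 arrays, with no p since this measure chose the set. The median Pearson r was 0.71 over the other 32 members, against 0.05 over the other 26324 genes tested. An r of at least 0.9 was found for 5 of the 32 (15.6%), against 0.642% of genes, and of at least 0.7 for 17 (53.1%), against 4.36%. The points of all genes share the array, its RNA and its scaling. The spread of Fabp4 came from the low Se groups, since the normal Se GD arrays spanned a range of 0.14.

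Adipoq (r = 0.98, Spearman's rho = 0.93), Plin4 (0.97, 0.93), Thrsp (0.96, 0.90), Car3 (0.94, 0.90) and Gpd1 (0.93, 0.83) followed Fabp4 most closely. Without low Se GD replicates 1 and 2, the arrays farthest from the median of Fabp4, their r was 0.95 to 0.99. Cfd and Retn, at 0.88 both, went to 0.99 and 0.95 there. Low Se GD then kept 1 array, which has no deviation from its own mean. These values thus describe mostly the non-GD arrays, since Fabp4 hardly varied in normal Se GD. On non-GD replicate 2, Adipoq, Car3 and Cfd were not well above background. Other members had a lower r once low Se GD no longer counted: Scd1 went from 0.71 to -0.37, Acacb from 0.71 to -0.45, Cebpa from 0.67 to -0.73 and Cidea from 0.72 to 0.14. Lpl (0.27) and Pparg (0.16) ran with Fabp4 in non-GD and against it in low Se GD, and went to 0.71 and 0.82 without those arrays. Acaca was at 0.02, and Elovl6 (-0.07), Lipe (-0.25) and Acly (-0.54) had negative values. Second probes gave other values for some genes, with 0.78 for Acly, 0.99 for Adrb3 (against 0.14) and 0.93 for Cidec (against 0.58).

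From high to low, Fabp4 ordered the arrays as replicates 1, 3 and 2 in non-GD and as replicates 1, 2 and 3 in low Se GD, and both orders were met by 16 of the 32 members (50%), against 8.33% of genes tested. Pcx, well above background on every array, had the order of Fabp4 in all 3 groups, as did 1.5005% of genes tested. The log2 offset between Adipoq and Fabp4 had an SD of 0.57 over the 7 arrays where both were measured, while Fabp4 itself had an SD of 2.52 there. For Car3 the SD of the offset was 0.78 over 7 arrays and for Thrsp 0.98 over 9. For Pcx it was 2.004 and for Acly 2.54 over 9 arrays, near the SD of Fabp4 itself (2.56), since these genes varied far less than Fabp4.

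**Figure D4:**
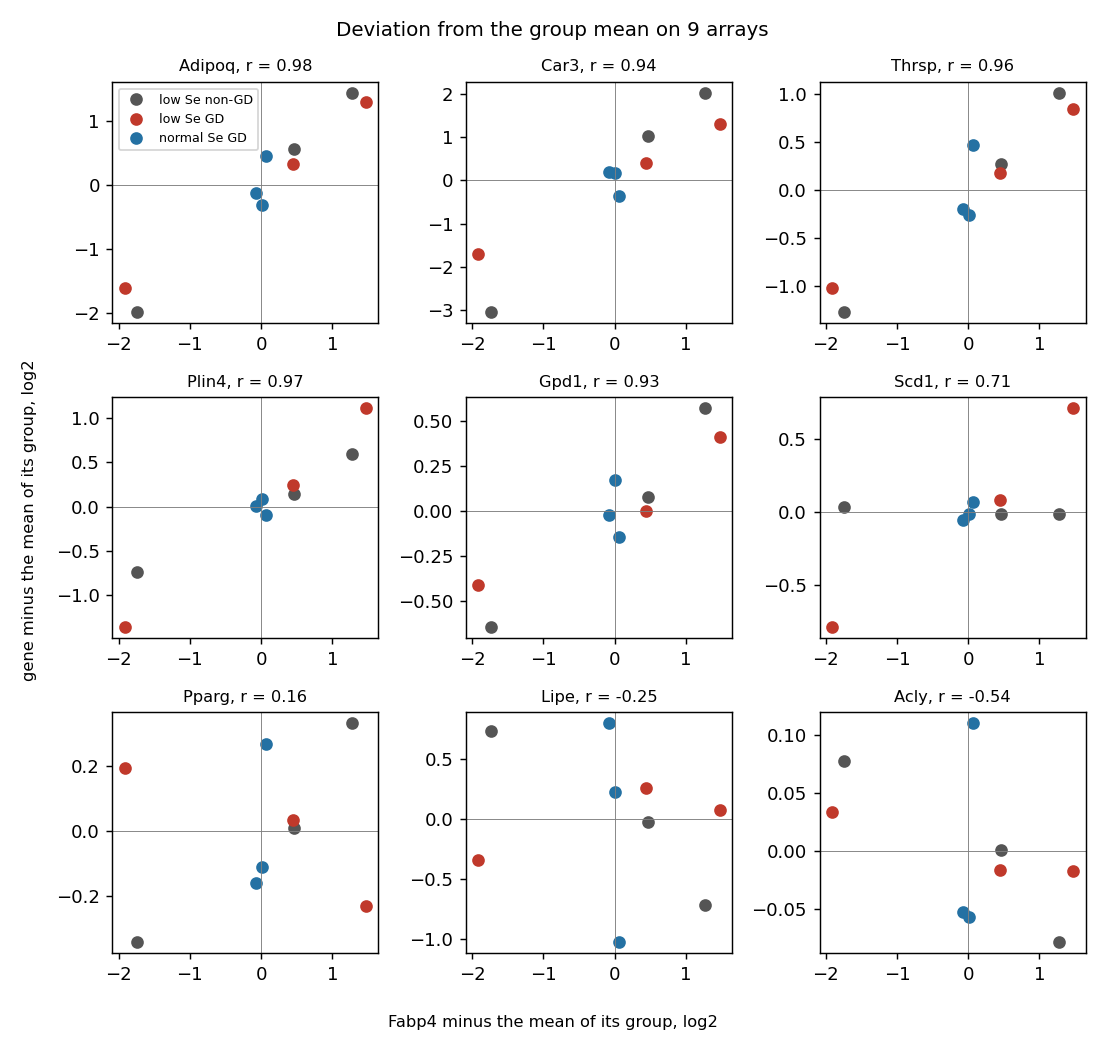
Deviation of each of 9 genes from its group mean (vertical axes, log2) against that of Fabp4 (horizontal axes, log2) on the 9 arrays, coloured by group. Adipoq, Plin4 and Thrsp lie along a line in both low Se groups, Scd1 rests on low Se GD replicates 1 and 3, and Pparg, Lipe and Acly show no common line.

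Genes of fat and lipid metabolism outside the set were read from 5 further lists of 105 genes, of which 102 were tested. These lists, and the marker lists below, were chosen with earlier results of these arrays known. Their counts and p-values are therefore descriptions and no independent support for the pattern of the members. In low Se GD against non-GD, 20 rose and 9 fell (limma, adjusted p under 0.05 over all genes), with a median of 0.28, and 17 in all passed without non-GD replicate 3, 17 without low Se GD replicate 2 and 1 without both. Of all genes tested, 12.8% rose and 12.2% fell in that comparison. Of 26 other fat cell genes tested, 7 rose and 2 fell. Mrap, an adaptor of the corticotropin receptor in fat, rose by 1.998 ± 0.495 (limma adjusted p = 0.0224), and its r with Fabp4 was 0.96. Adig (adipogenin) rose by 1.91 ± 0.58 (limma adjusted p = 0.0457), and Cd36, the fatty acid translocase of fat cells, macrophages and vessels, by 1.59 ± 0.19 (limma adjusted p = 0.00183). Hcar1, the lactate receptor of fat cells, fell by 2.73 ± 0.43 (limma adjusted p = 0.00424), and Nnat (neuronatin) fell by 1.20 ± 0.14 (limma adjusted p = 0.0017). Hcar1 and Nnat are thus genes of fat cells that moved against Fabp4 and Adipoq.

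Among 20 other genes of fatty acid and glyceride synthesis, 6 rose and 3 fell in that comparison. Me1, which supplies NADPH, rose by 1.06 ± 0.14 and Srebf1, the lipogenic transcription factor, by 0.77 ± 0.13, while Mogat1 fell by 3.76 ± 0.57 and the desaturase Fads1 by 1.56 ± 0.27 (limma adjusted p = 0.00255, 0.00493, 0.00361 and 0.0055). Of 20 fatty acid oxidation genes, 5 rose and 2 fell. Pdk4, which spares glucose during fat use, rose by 2.21 ± 0.63 (limma adjusted p = 0.0376), and Slc25a20, the carnitine carrier, fell by 1.67 ± 0.31 (limma adjusted p = 0.00729). Of 15 brown fat genes, Ucp3 rose and Ppargc1a fell. Of 21 sterol synthesis genes, 1 rose and 1 fell. Lss fell by 1.84 ± 0.16 (limma adjusted p = 0.000658).

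In normal Se GD against non-GD, 22 of the 102 tested list genes rose and 9 fell, where 18.9% and 13.4% of all genes tested did. In all, 19 passed without non-GD replicate 3 and 12 without both in-between arrays. Cd36 rose by 1.67 ± 0.19 (limma adjusted p = 0.00117) and Hcar1 fell by 2.62 ± 0.43, both close to their change in low Se GD. Sterol genes accounted for 6 of the higher ones, with Insig1 at 2.03 ± 0.37.

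Markers of tissues that border or enter the spleen were summed on each array, in units of the array's 75th percentile. The 27 other fat cell genes summed to 25.4 to 30.8 in non-GD, 35.4 to 39.0 in low Se GD and 24.4 to 30.4 in normal Se GD, with 19 to 22, 26 to 27 and 15 to 25 of the 27 well above background. The 11 mesothelium markers summed to 4.30, 1.29 and 2.79 in non-GD, to 2.08, 1.51 and 1.05 in low Se GD and to 1.24, 1.27 and 1.09 in normal Se GD. They thus had the array order of Fabp4 within both low Se groups but not its order of groups, and the median r of the 9 tested with Fabp4 was 0.91. Of these markers 1, Cldn15, fell in low Se GD against non-GD (by 1.11 ± 0.19, limma adjusted p = 0.00539). Their part in the results on the members was not tested.

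The 17 exocrine pancreas markers on the array summed to 4.20, 7.43 and 5.66 in non-GD, where Fabp4 ran in the opposite order, and to 1.32 to 2.15 on the 6 diseased arrays. Pnlip (pancreatic lipase) and Rbpjl differed by -3.24 ± 0.39 and -3.26 ± 0.41 in low Se GD against non-GD, both lower (limma adjusted p = 0.00182 and 0.00203). They were the only 2 called of 13 tested pancreas markers, and the median difference of the 13 was 0.04. The lower sum was thus not shared by most of the tested markers. Lipe had the array order of the pancreas sum in non-GD, but so did Elovl6, Acly, Scd1 and Acacb. The order was thus not particular to Lipe, and its share among all genes was not counted. Non-GD replicate 3 was in-between for 78.3% of genes well above background on every array. The part of the pancreas markers in the values of these members was not tested. The 8 endothelium markers, all well above background on every array, summed to 9.34 to 10.3, 12.7 to 14.6 and 14.2 to 17.0 in the 3 groups. In low Se GD against non-GD 3 of them rose, where 12.8% of all genes tested did. The 12 fat precursor and stromal markers summed to 20.3 to 21.2, 13.9 to 19.1 and 16.6 to 18.3, with 1 that rose and 2 that fell.

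**Figure D5:**
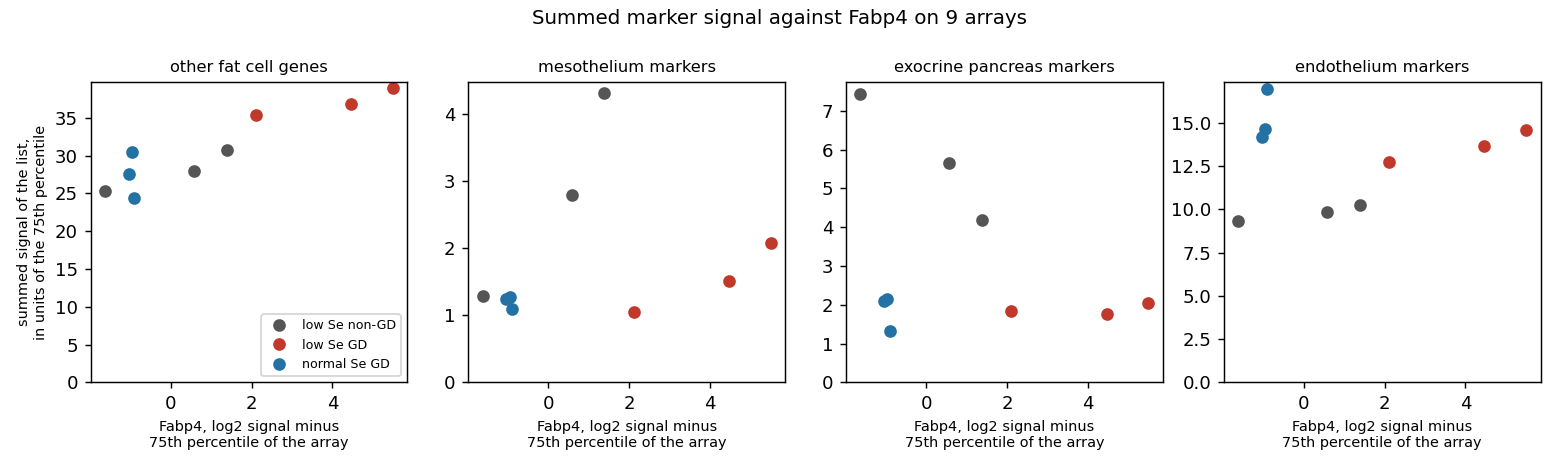
Summed signal of 4 marker lists (vertical axes, in units of the 75th percentile of the array, from 0) against Fabp4 (horizontal axes, log2 signal minus that percentile) on the 9 arrays, coloured by group. The mesothelium sum rises with Fabp4 inside each low Se group and is highest, at 4.30, in non-GD replicate 1, while the pancreas sum is highest, at 7.43, in non-GD replicate 2.

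The control spot E1A a107 of the array design had a mean of 5.31 ± 0.57 (SD, n = 3) in non-GD, of 1.74 ± 0.75 in low Se GD and of 1.56 ± 0.76 in normal Se GD (same n). Its r with the members over the 9 arrays, group means removed, was 0.13 for Fabp4, -0.02 for Adipoq, 0.83 for Lipe and -0.90 for Pparg. Rn28s1, a ribosomal RNA probe, was at 0.45 to 0.83 on the non-GD arrays and at 3.003 to 5.99 on the diseased arrays. Both split non-GD from the diseased groups, as Lipe, Pparg, Cebpa, Dgat1, Dgat2, Pnpla2, Acacb and Scd1 did. The part of E1A a107 and Rn28s1 in those differences was not tested.

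Outside the set and its lists, the 10 genes well above background on every array whose deviations were most like those of Fabp4, of 13216 such genes, were Slc9a3r2 (r = 0.99), Cpe, Gas1, Cnn1, Pxdn and Pdpn (0.98), and Pacsin3, Dedd, Lims2 and Mmp2 (0.97). Cnn1, a calponin of smooth muscle, was at -0.76, -4.23 and -1.74 in non-GD, at -0.18, -1.15 and -2.996 in low Se GD and at -2.52, -2.63 and -2.09 in normal Se GD. Its low Se groups overlapped, unlike those of Fabp4. Low Se GD minus non-GD was -0.89 ± 0.27 for Pdpn (podoplanin) and 1.31 ± 0.34 for Lims2.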

How the data were processed

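Per the labels' protocols, spleen RNA was run on 1-colour Agilent whole mouse genome arrays. The deposited scanner files hold a linear intensity per spot, background-subtracted and spatially detrended; the file headers name Feature Extraction 11.0.1.1. Other deposited columns hold 0 or 1 marks for spots well above background, saturated (0 on every array) or outliers. A deposited table of the authors' log2 values, made in a way not given in the sources used here, served as an alternative; the columns of the non-GD group were each closer to another of its arrays than to their own, so replicate numbers in that group are uncertain.

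The 1377 control spots among 44397 per array were dropped. Signals were put on the log2 scale with the 75th percentile of the array at 0, outlier spots were dropped, and the probe with the highest mean stood for a gene. By accession, 27234 of 39429 probes were named from RefSeq's GRCm38.p6 table. Genes well above background on fewer than 3 arrays (6078) and 48 with a marked spot were left out. With limma 3.58.1 in R 4.3.3, 1 fit over all 9 arrays (6 residual degrees of freedom, 1.81 prior) gave 2-sided p-values, adjusted by Benjamini and Hochberg over 26325 genes with a threshold of 0.05, checked on simulated data. "At least" folds set the brighter group's mean against the lowest measurable signal of each array of the dimmer group (or the gene's own signal where higher). Members and lists were chosen with earlier results of these data known. Named were all 33 members, up to 3 called genes in each direction per list and comparison with the largest difference, the called genes of lists with 5 or fewer, and the 10 genes most like Fabp4; the text gives those that bear on the members. Deviations of same-numbered samples correlated at -0.36 to 0.24 between groups. With uncertain replicate numbers in non-GD, this cannot tell whether the samples were paired, and the fit used no pairing. The number of arrays, 3 per group, limits the precision. The normexp alternative used median spot signals, since mean signals were not used here. Further alternatives were quantile scaling, the array median, the mean of probes, filters, the slide (shared scan time in the headers) and each array left out. A result on 1 listed gene is not reported here.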

Additional observations from a re-analysis of the deposited data

How the results depend on the processing

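Direction held for every member difference called in the fit under each alternative tried (0 reversed). Of the results on single members, 1849 stayed on the same side of the threshold, 168 lost a call and 86 gained 1, so single calls rest on these settings. The median difference over the members in low Se GD against non-GD, 0.91, was 0.48 with normexp background correction and 0.76 to 1.12 with 1 array left out. Between the diseased groups it ran from -0.88 to -0.44 with 1 array left out. In normal Se GD against non-GD it was -0.09, from -0.23 to 0.11 with 1 array left out, and 0.72 with the slide as a fixed block. The median correlation with Fabp4, 0.71, ran from 0.50 (without low Se GD replicate 3) to 0.83 (without non-GD replicate 2). Of the 102 tested list genes, 29 were called in low Se GD against non-GD, 17 to 43 with 1 array left out, 7 on slide 1 alone, and 1 without both in-between arrays, an alternative chosen after seeing the data. Between the diseased groups 1 was called, and 0 with normexp, quantile scaling, the array median as centre, the authors' table, no filter on dim probes, only the 2 groups compared or without both in-between arrays. It was 2 with an intensity trend, 4 with the slide as a fixed block, 5 with only genes well above background on all 9 arrays, 9 with the slide as a random block, 9 on slide 2 alone and 0 to 3 with 1 array left out. In normal Se GD against non-GD 31 were called, 17 with the slide as a fixed block, 12 without both in-between arrays and 19 to 38 with 1 array left out. Of all genes tested, 24.9% were called in low Se GD against non-GD and 32.3% in normal Se GD against non-GD. The replicate block, on numbers not shown to pair the samples, gave 23, 0 and 25 calls in the 3 comparisons in order. The causes were not tested. Normexp moved the median of the genes tested in low Se GD against non-GD from 0.08 to -0.16 and the share of calls that were higher from 51.2% to 40.9%. Signal over background limits Lep, Ucp1, Acvr1c, Cidea and Plin1, which some groups or all lacked, and normexp turned Cidea in the first comparison from 1.75 to -0.06. Adipoq, Cfd, Cidec, Pck1, Adrb3, Cox8b and Car3 also fell short of that mark on some arrays.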

Other observations

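Beyond the fat and lipid genes, 6 of 8 endothelium markers rose in normal Se GD against non-GD and 3 in low Se GD against non-GD (limma, adjusted p under 0.05 over all genes). Of all genes tested, 18.9% and 12.8% rose in these comparisons. Cdh5 (VE-cadherin) rose by 1.26 ± 0.11 and 1.23 ± 0.11, and Cldn5, a tight junction protein of vessels, by 1.23 ± 0.14 and 1.20 ± 0.14. Of 11 spleen cell markers tested, 3 rose in normal Se GD against non-GD and 2 in low Se GD against non-GD, and 0 fell. The macrophage genes Vcam1 and Csf1r of that list rose in both, Vcam1 by 0.74 ± 0.13 and 1.02 ± 0.13 and Csf1r by 0.82 ± 0.10 and 0.70 ± 0.10. Spic, another macrophage gene of the list, was not called in low Se GD against non-GD. In neither list was a gene called between the diseased groups, which was not shown to be a lack of difference.

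Of the stromal markers, Pdgfra rose by 1.32 ± 0.28 in low Se GD against non-GD and by 1.26 ± 0.28 in normal Se GD, while Cd34 fell by 1.29 ± 0.25 and 1.37 ± 0.25. The mesothelium markers Msln (mesothelin) and Lrrn4 fell by 2.21 ± 0.72 and 2.58 ± 0.83 in normal Se GD against non-GD (limma adjusted p = 0.0491 and 0.0474). The skeletal muscle actin Acta1 fell by 1.104 ± 0.15 in low Se GD and by 0.64 ± 0.15 in normal Se GD, each against non-GD. Of 8 skeletal muscle markers tested, 1 was called lower in the first comparison and 2 in the second, and 0 higher. The median differences of the 8 were -0.21 and 0.23, so the list as a whole did not fall in the second.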
